A study of Homo sapiens with 6 samples.

Results

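Chemokines and interleukins are small secreted proteins through which cells call in and instruct one another. They were measured here as transcripts in SUM-LM1 breast cancer cells, a lung-metastatic derivative of the SUM159 line. The cells were grown as floating cultures in ultra-low attachment plates, seeded at 12500 cells per ml in HuMEC medium, and given recombinant activin B at 50 ng/ml or vehicle (phosphate-buffered saline with 0.1% bovine serum albumin) for 6 h. Each condition was represented by 3 arrays (Affymetrix human U133 Plus 2.0), and both groups were cells of the same single line with no other agent or genetic change between them. Activin B is a ligand of the TGF-beta superfamily that signals through receptor serine/threonine kinases and SMAD transcription factors, and the comparison asks which transcripts differed after its addition.

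The genes were selected by a rule on names, which was set with earlier results of these data known. A gene was a member where its symbol was a CXCL, CCL or IL letter stem followed by a number, with or without a final A or B, or was CX3CL1, XCL1 or LIF, and where a probe set carried that symbol and no other. The rule found 70 genes among 19775, measured by 102 of 54613 probe sets, and 24 of the 70 had more than 1 probe set. Where a gene had several, the set of greatest average signal across all 6 arrays stands for it. CCL3, CCL14 and CCL15 were carried only by probe sets that list several genes and were left out. All values are log2 signals, and a change is the mean of the activin B arrays minus the mean of the vehicle arrays. Signals of different probe sets are not calibrated against each other, so a mean log2 signal of 7.5 was used only to separate members with a clear signal from those near the array median of 6.69. No detection calls came with the values, so whether a transcript near the array median was present at all was not read from them.

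Chemokines are grouped by the spacing of their first cysteines. CXCL1, CXCL2, CXCL3, CXCL5, CXCL6 and CXCL8 attract neutrophils through the receptors CXCR1 and CXCR2, whereas CXCL9, CXCL10 and CXCL11 are induced by interferons and attract activated T cells through CXCR3. Many of these ligands, with IL1A, IL1B and IL6, are classical targets of the transcription factors NF-kappa-B and AP-1, and in tumours they draw in myeloid cells. Within the interleukins, IL6, IL11 and LIF share the signalling subunit gp130, and IL19, IL20 and IL24 belong to the IL-10 family and signal through receptors that share the chain IL20RB.

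The stretches before the transcription start of 10 members are shown because they carry the letters of the factors named above. They include those of CXCL5 and CXCL6, which had low signals, and not that of IL19, whose listed starts lie far apart. They come from RefSeq (build GRCh38.p14), run 5′ to 3′ in the direction of the gene, and hold 120 bases each, and capitals mark a match to the kappa-B motif, or to the AP-1 motif in the lines of IL11 and CXCL8.
CXCL3: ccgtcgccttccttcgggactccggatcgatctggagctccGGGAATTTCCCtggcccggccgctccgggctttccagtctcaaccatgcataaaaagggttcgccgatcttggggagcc
CXCL2: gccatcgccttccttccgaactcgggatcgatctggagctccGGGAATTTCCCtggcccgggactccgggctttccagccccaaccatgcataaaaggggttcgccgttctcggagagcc
CXCL1: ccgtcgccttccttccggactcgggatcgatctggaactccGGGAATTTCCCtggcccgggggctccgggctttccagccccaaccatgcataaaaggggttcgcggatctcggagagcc
CXCL5: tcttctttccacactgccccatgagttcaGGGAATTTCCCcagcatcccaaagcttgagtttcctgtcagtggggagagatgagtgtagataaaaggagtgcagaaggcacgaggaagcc
CXCL6: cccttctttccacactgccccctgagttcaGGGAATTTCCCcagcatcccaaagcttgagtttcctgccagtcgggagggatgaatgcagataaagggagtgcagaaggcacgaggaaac
CXCL8: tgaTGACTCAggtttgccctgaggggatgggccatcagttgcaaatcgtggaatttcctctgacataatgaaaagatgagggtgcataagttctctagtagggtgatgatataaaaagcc
CXCL10: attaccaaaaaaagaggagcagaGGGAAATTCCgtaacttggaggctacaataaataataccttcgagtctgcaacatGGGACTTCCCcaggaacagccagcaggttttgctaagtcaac
CCL20: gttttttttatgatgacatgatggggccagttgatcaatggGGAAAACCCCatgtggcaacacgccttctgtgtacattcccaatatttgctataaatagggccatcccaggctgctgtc
IL6: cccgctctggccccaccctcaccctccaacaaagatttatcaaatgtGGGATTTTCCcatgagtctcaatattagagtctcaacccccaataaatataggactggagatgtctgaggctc
IL11: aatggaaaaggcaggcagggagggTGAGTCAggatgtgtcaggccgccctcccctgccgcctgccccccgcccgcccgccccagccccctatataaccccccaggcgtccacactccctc
The stretches lie at chr4:74038690-74038809, chr4:74099196-74099315 and chr4:73998678-73998797 on the minus strand for CXCL3, CXCL2 and CXCL5, and at chr4:73869273-73869392, chr4:73836558-73836677 and chr4:73740429-73740548 on the plus strand for CXCL1, CXCL6 and CXCL8. Those of CXCL10 and IL11 lie on the minus strand at chr4:76023578-76023697 and chr19:55370464-55370583. Those of CCL20 and IL6 lie on the plus strand at chr2:227813722-227813841 and chr7:22727080-22727199. Each stretch ends at the base before the start, except that of CXCL10, which ends at position -81, and that of CXCL8, which ends at position -21.

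The promoter stretches of CXCL1, CXCL2 and CXCL3 were near copies of each other. CXCL1 and CXCL2 were identical at 93.4% of aligned positions, CXCL1 and CXCL3 at 90.8%, and CXCL2 and CXCL3 at 88.4%. CXCL5 and CXCL6 formed a second pair with 90.9% identity, and identity across the 2 sets was 42.3% to 49.6%. All 5 held the same kappa-B run, in which the motif matched at overlapping positions on opposite strands (-79 and -78 in CXCL3, -91 and -90 in CXCL5). The genes lie side by side on chromosome 4, where RefSeq orders the coding genes as CXCL8, CXCL6, PF4V1, CXCL1, PF4, PPBP, CXCL5, CXCL3 and CXCL2.

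RefSeq promoter stretches, running from 250 bases before the start to 50 bases after it, could be matched for 50 of the 70 members. All motifs were searched on both strands of the 250 bases before the start only, and a member counted once if any of its listed starts matched. The kappa-B motif (10 letters) was present in 13 of the 50 members (26%), among them CXCL1, CXCL2, CXCL3, CXCL10, CXCL11, CCL20, IL6 and IL32, against 6.28% of 27305 genes with such stretches. The AP-1 letters TGANTCA were found in 12 members (24%), CXCL8, IL1A, IL11 and IL19 among them, against 8.06% of genes. The interferon-stimulated response element, read as GAAA, any 2 bases and GAAA, occurred in 5 members (10%), including CXCL9 and CXCL10, against 3.71% of genes. CAGACA, which holds the SMAD box, was present in 7 members (14%) against 16.3% of genes, and GGCGCC, a GC-rich SMAD motif, in 3 (6%) against 19%. Such matches describe letters in a window and not binding in these cells.

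The 6 arrays were closely alike, with correlations of 0.9935 to 0.9961 between arrays and medians of 6.69 to 6.70. The first principal component held 29.5% of the variance and set activin B replicate 3 (score 21.66) apart from the other 5 arrays (-10.62 to 5.70). Its scores rose with the replicate number in both groups, at -9.10, -1.67 and 21.66 in activin B and -10.62, -5.98 and 5.70 in vehicle. The labels do not say whether a number marks a shared culture or day. Known early activin and BMP responses were present: the 5 genes ID1, ID2, ID3, SMAD7 and SKIL all passed the test, with ID3 higher by 2.85 on the log2 scale (adjusted p = 6.81e-08) and SMAD7, an inhibitor of the pathway, by 0.63 (adjusted p = 0.000313; limma, Benjamini-Hochberg over all probe sets). Over all probe sets, 40 were higher (0.0732%) and 26 lower (0.0476%) in activin B at an adjusted p under 0.05. Of 10 markers of breast cancer lines, 5 had a mean signal of 7.5 or more (KRT18, KRT14, KRT8, VIM and CD44), whereas EPCAM, CDH1, ESR1, PGR and KRT5 had lower ones. None of 11 measured leukocyte markers reached 7.5, and their mean signal was 6.42 to 6.57 in activin B arrays and 6.48 to 6.50 in vehicle arrays. PTPRC, the pan-leukocyte marker CD45, was at 6.40, 6.36 and 6.17 in activin B arrays and 6.26, 6.23 and 6.17 in vehicle arrays, and 1 marker of the list, CD3E, had an unadjusted p under 0.05 (change 0.20, adjusted p = 0.799, limma). Of 7 endothelial markers only PECAM1 did, at 7.70, 7.57 and 7.68 in activin B arrays and 7.97, 7.76 and 7.78 in vehicle arrays (change -0.19, adjusted p = 0.874, limma).

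No chemokine or interleukin passed the test across the array. Of the 70 members, 0 were called at an adjusted p under 0.05, against 0.192% of all genes (0.101% higher and 0.091% lower in activin B), and the smallest adjusted p was 0.137, for CXCL3 (limma). At an unadjusted p under 0.05 there were 10 members (14.3%), 6 of them higher and 4 lower in activin B, against 5.89% of all genes (3.14% higher and 2.75% lower). The arrays of the 2 groups did not overlap in 11 members (15.7%), 6 higher and 5 lower, against 10.3% of all genes (5.14% higher and 5.21% lower). In total 35 members had a positive change and 35 a negative one, with a median of -0.0010 beside -0.0017 over all genes, and the changes ran from -0.36 to 0.41. The labels call the 3 arrays of a group biological replicates of the one line, and p-values measure the spread between them. The fit held no replicate block, so any spread that arrays of the same number share across the groups counts as noise in it.

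**Figure D1:**
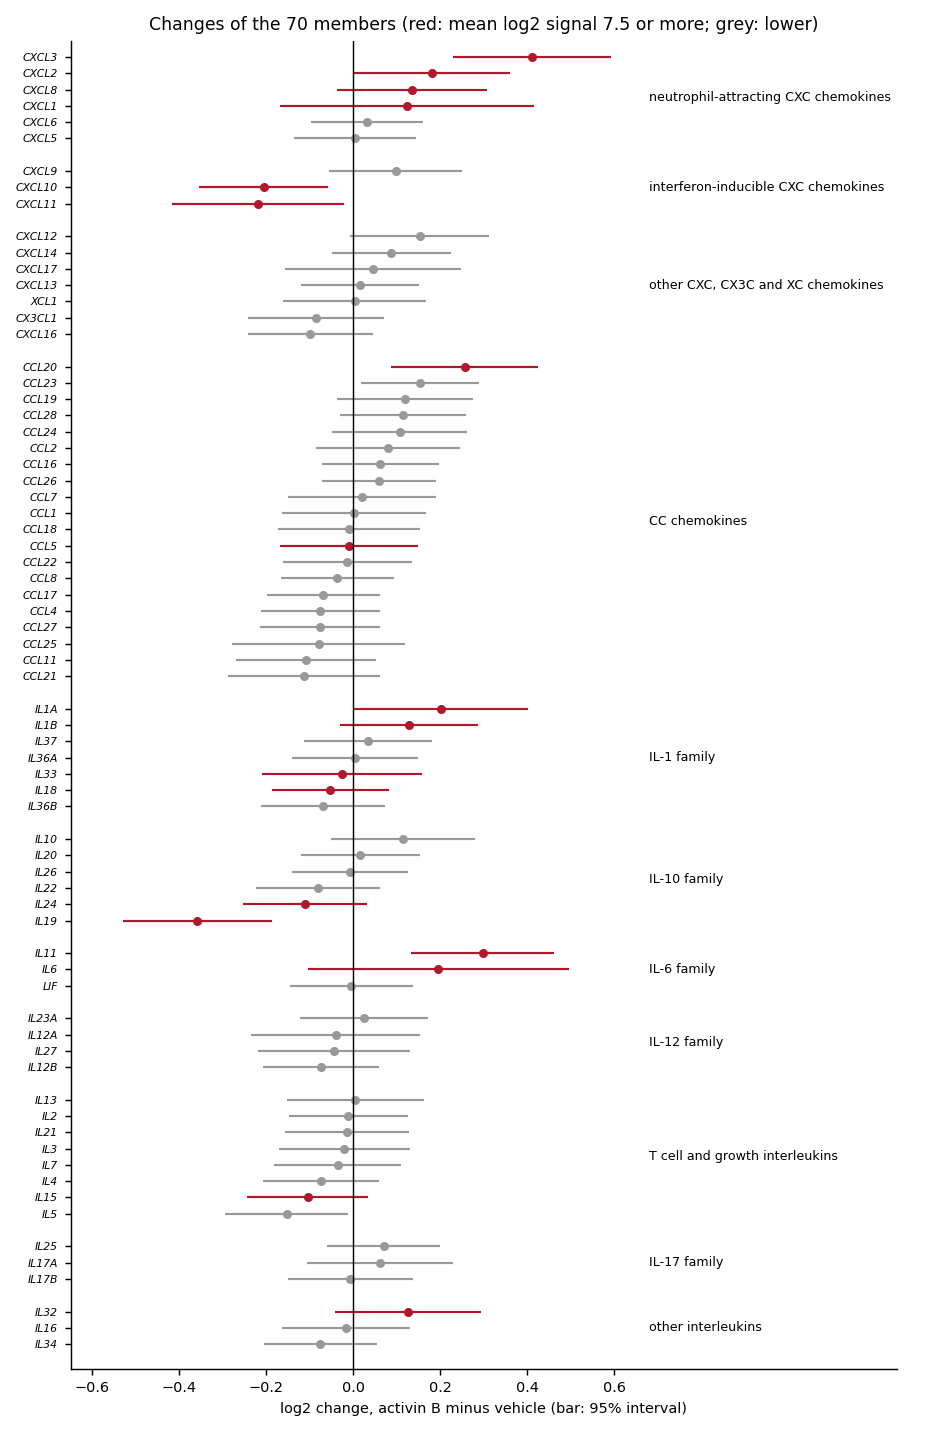
Log2 change (activin B minus vehicle) of each of the 70 members with its 95% interval, by family; red points have a mean log2 signal of 7.5 or more and grey points a lower one. CXCL3 (0.41) and IL19 (-0.36) lie at the ends, and grey members lie between -0.15 and 0.15.

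Most members had low signals. Only 18 of the 70 (25.7%) had a mean signal of 7.5 or more, against 42.9% of all genes. Of these 18 members, 0 were called, against 0.401% of genes at that signal, and 8 had an unadjusted p under 0.05 (44.4%), against 6.94% of such genes (3.71% higher and 3.23% lower). In a fit on probe sets of that signal alone, 5 of the 18 did, against 6.48% of genes. The 8 were CXCL3, IL11, CCL20, IL1A and CXCL2 on the higher side, and IL19, CXCL10 and CXCL11 on the lower. Their groups did not overlap in 5 of the 18 (27.8%, against 11.6% of genes at that signal, 5.59% higher and 5.96% lower), and their median change was 0.125. Without vehicle replicate 1, 4 of the 18 (CXCL3, CCL20, IL11 and IL19; 22.2%) had an unadjusted p under 0.05, against 5.91% of genes at that signal, and 5 of all 70 members did (7.14%), against 5.23% of all genes. The 52 members of lower signal changed by -0.15 to 0.15, and the widest 95% interval among them reached 0.31, a 1.24-fold difference. As the values are from whole cultures, fewer producing cells and less RNA per cell cannot be told apart in any of them.

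**Figure D2:**
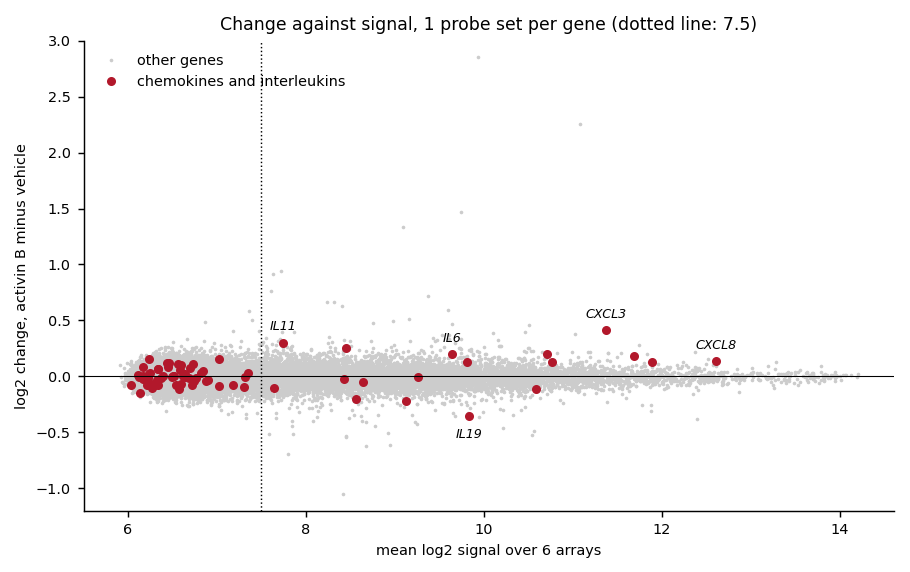
Log2 change (activin B minus vehicle) against the mean log2 signal over the 6 arrays, with 1 probe set per gene; red points are the 70 chemokines and interleukins, grey points the other genes, and the dotted line marks 7.5. Most members lie left of the line, and the members with the widest changes lie right of it.

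Among the neutrophil-attracting chemokines, CXCL3 had the highest change of any member. CXCL3 had signals of 11.58, 11.69 and 11.45 in activin B arrays and 10.98, 11.22 and 11.29 in vehicle arrays. All 3 activin B arrays thus lay above all 3 vehicle arrays. The means were 11.58 ± 0.12 in activin B and 11.16 ± 0.16 in vehicle (SD, n = 3 each), a change of 0.41 ± 0.085 (SE) or 1.33-fold, with a 95% interval of 0.23 to 0.59 and an adjusted p of 0.137 (limma). With an intensity trend in the prior of the test the adjusted p was 0.0122, and with array weights 0.0449, so that the call depended on these settings.

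CXCL2, whose stretch of promoter is a near copy, gave 11.73, 11.80 and 11.80 in activin B arrays and 11.41, 11.58 and 11.80 in vehicle arrays. The groups met at the top, because vehicle replicate 3 was as high as the activin B arrays, and the change was 0.18 (adjusted p = 0.946, limma). Its remaining 2 probe sets, both of lower signal, changed by 0.24 and 0.14, without overlap of the groups (unadjusted p of 0.0166 and 0.0344, adjusted p of 0.85 and 0.924, limma). The representing sets of CXCL2 and CXCL8 carry the manufacturer's suffix for probes that can match other transcripts, and the coding sequences of CXCL1, CXCL2 and CXCL3 are closely related, so that the split of signal among these genes is uncertain. CXCL8, encoding interleukin-8, had 12.62, 12.77 and 12.65 in activin B arrays and 12.36, 12.60 and 12.67 in vehicle arrays. It changed by 0.14 (adjusted p = 0.986, limma), with 0.11 in its second set.

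CXCL1 varied more between the arrays of a group than between the groups. Its signals were 10.68, 10.85 and 10.97 in activin B arrays and 10.28, 10.82 and 11.02 in vehicle arrays, so that a vehicle array was both the lowest and the highest of the 6. The change was 0.12 with an SE of 0.137, larger than the SE of 99.8% of genes at a signal of 7.5 or more, and without vehicle replicate 1 it was -0.09. CXCL6 (0.03) and CXCL5 (0.00) had signals under the array median in all arrays, at 6.30, 6.27 and 6.25 for CXCL6 in activin B arrays and 6.24, 6.21 and 6.27 in vehicle arrays. All 6 neutrophil-attracting members had a positive change, with a median of 0.13, as did 9704 of all 19775 genes. The change of CXCL5 turned negative in 4 of 15 alternative settings, and that of CXCL1 in 1 of 17. Of the 6 members, 2 had an unadjusted p under 0.05 (33.3%, against 5.89% of all genes).

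**Figure D3:**
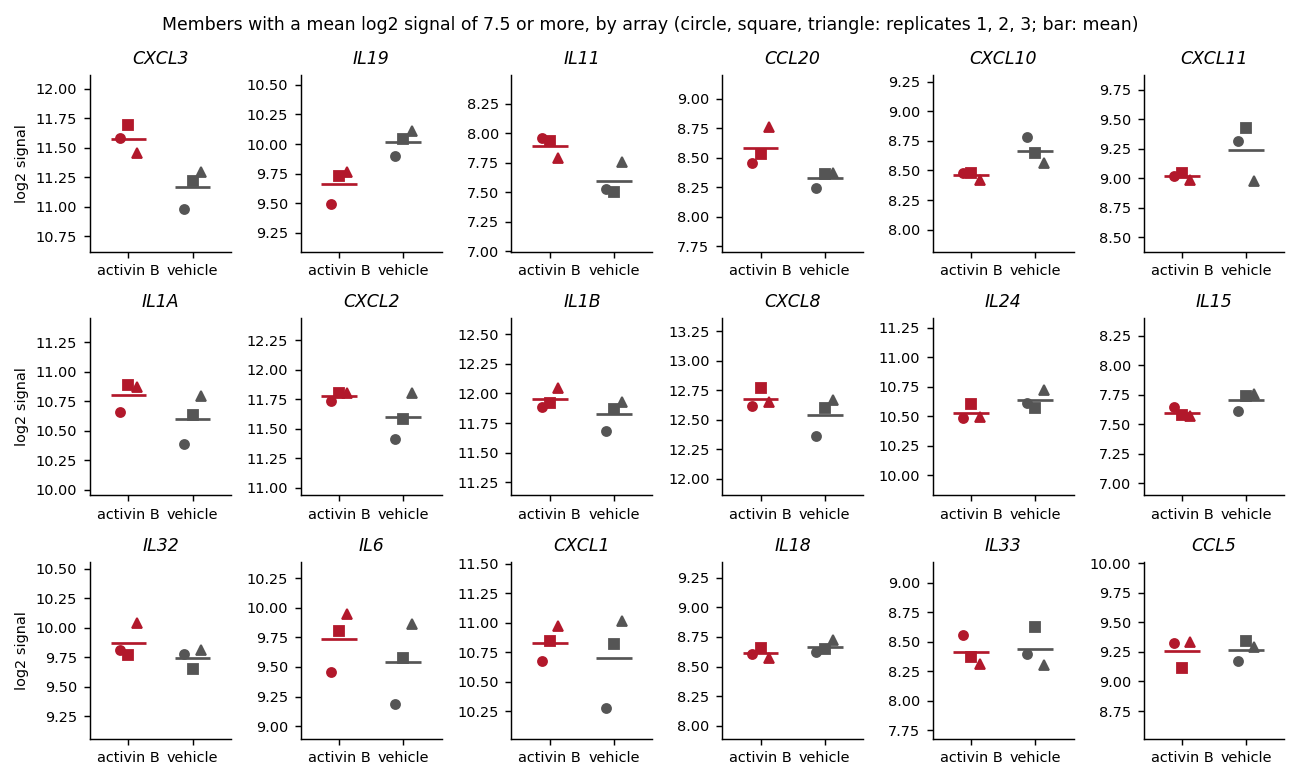
Log2 signal of the 18 members with a mean of 7.5 or more, ordered by p; circles, squares and triangles are replicates 1, 2 and 3, bars are group means, and every panel spans the same log2 range. The groups do not overlap for CXCL3, IL19, IL11, CCL20 and CXCL10.

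Of the 3 interferon-inducible ligands, CXCL10 and CXCL11 had lower means in activin B, CXCL9 had a higher one, and 0 were called. CXCL10 had 8.48, 8.48 and 8.42 in activin B arrays and 8.79, 8.65 and 8.56 in vehicle arrays, with no overlap. The change was -0.21, 1.15-fold lower in activin B, at an adjusted p of 0.741 (limma), and -0.15 without vehicle replicate 1, its highest array. CXCL11, its neighbour on chromosome 4, had 9.02, 9.05 and 8.99 in activin B arrays and 9.31, 9.43 and 8.97 in vehicle arrays. Here vehicle replicate 3 fell in with the activin B arrays, and the change was -0.22 (adjusted p = 0.918, limma), with -0.18 in the second set. Without vehicle replicate 2 it was -0.12 and without vehicle replicate 3 -0.35. CXCL9, the third ligand of CXCR3, had a signal of 6.60 and changed by 0.10. Thus 2 of the 3 had an unadjusted p under 0.05, both lower in activin B (against 2.75% of all genes in that direction).

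Of 20 CC chemokines, which mostly attract monocytes and lymphocytes, only CCL20 and CCL5 had a mean signal of 7.5 or more. CCL20, the ligand of CCR6 on Th17 and immature dendritic cells, had 8.45, 8.53 and 8.76 in activin B arrays and 8.25, 8.36 and 8.37 in vehicle arrays. The groups did not overlap, and the change of 0.26 (1.19-fold) had an adjusted p of 0.635 (limma). CCL5 had 9.33, 9.12 and 9.34 in activin B arrays and 9.18, 9.34 and 9.29 in vehicle arrays, a change of -0.01, while its other 2 sets gave -0.18 and -0.10. In the set at -0.18 the groups did not overlap (unadjusted p = 0.0113, adjusted p = 0.778, limma). CCL2, the main attractant of monocytes through CCR2, also had signals under the array median, at 6.09, 6.29 and 6.27 in activin B arrays and 6.02, 6.13 and 6.27 in vehicle arrays, and its change of 0.08 had a 95% interval of -0.09 to 0.24. CCL23 had an unadjusted p of 0.0286 at a signal of 6.24, with 6.33, 6.33 and 6.30 in activin B arrays and 6.12, 6.13 and 6.25 in vehicle arrays (change 0.15, adjusted p = 0.907, limma). The other 16 CC members had an unadjusted p above 0.05, and changes of -0.11 to 0.12. The 7 remaining CXC, CX3C and XC chemokines had no unadjusted p under 0.05, and CXCL12, the ligand of CXCR4, changed by 0.15 with a 95% interval of -0.01 to 0.31.

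In the IL-1 family, the inflammatory agonists IL1A and IL1B had high signals and small positive changes. IL1A had 10.66, 10.88 and 10.87 in activin B arrays and 10.38, 10.64 and 10.79 in vehicle arrays, a change of 0.20 (adjusted p = 0.942, limma), although its second set, of lower signal, changed by -0.07. IL1B had 11.89, 11.92 and 12.05 in activin B arrays and 11.68, 11.87 and 11.92 in vehicle arrays, and both of its sets changed by 0.13. The groups overlapped in the representing sets of both genes, while in the second set of IL1B they did not. IL18 and IL33, which are held in cells as precursors or in the nucleus, changed by -0.05 and -0.03. IL36A, IL36B and IL37 had signals under 7.5 and changes of -0.07 to 0.03.

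Within the IL-10 family the widest change was that of IL19. IL19 had 9.49, 9.73 and 9.76 in activin B arrays and 9.90, 10.04 and 10.11 in vehicle arrays. Every activin B array lay under every vehicle array, and the means were 9.66 ± 0.15 in activin B and 10.02 ± 0.11 in vehicle (SD, n = 3 each). The change was -0.36 ± 0.080 (SE), 1.28-fold lower in activin B, with a 95% interval of -0.53 to -0.19 and an adjusted p of 0.193 (limma). With the replicate number as a block the adjusted p was 0.0312 (limma), so that the call depended on this setting. IL24, which lies beside IL19 and IL20 on chromosome 1 and uses the same type of receptor, had 10.49, 10.60 and 10.49 in activin B arrays and 10.61, 10.57 and 10.72 in vehicle arrays, a change of -0.11 (adjusted p = 0.988, limma). IL10, IL20, IL22 and IL26 were at 6.13 to 6.72 and changed by -0.08 to 0.11.

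Of the ligands that signal through gp130, IL11 differed most between the groups. IL11, which is known as a TGF-beta-responsive cytokine in breast cancer cells, had 7.96, 7.94 and 7.79 in activin B arrays and 7.53, 7.505 and 7.76 in vehicle arrays. The groups did not overlap, though activin B replicate 3 lay just above vehicle replicate 3, and the change was 0.30 (1.23-fold, adjusted p = 0.375, limma). A second set for IL11 changed by 0.02. IL6 had 9.46, 9.81 and 9.95 in activin B arrays and 9.19, 9.58 and 9.87 in vehicle arrays. The groups overlapped, and the change was 0.20 with an SE of 0.141 and a 95% interval of -0.10 to 0.50. LIF, at 7.21, 7.40 and 7.36 in activin B arrays and 7.32, 7.31 and 7.35 in vehicle arrays, changed by -0.00 with a 95% interval of -0.15 to 0.14.

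Differences among the remaining members were small. IL15, which sustains natural killer and memory T cells, had 7.65, 7.57 and 7.57 in activin B arrays and 7.61, 7.74 and 7.76 in vehicle arrays (change -0.10). Its second set, of lower signal, changed by -0.15 without overlap of the groups (unadjusted p = 0.0248, adjusted p = 0.883, limma). IL32 had 9.81, 9.76 and 10.04 in activin B arrays and 9.78, 9.65 and 9.81 in vehicle arrays (change 0.13, adjusted p = 0.99, limma). By representing sets, IL5 was the only other member with an unadjusted p under 0.05, at signals of 6.15, 5.99 and 6.04 in activin B arrays and 6.24, 6.15 and 6.25 in vehicle arrays (change -0.15, adjusted p = 0.93, limma). As in CCL23, the groups of IL12B, IL4, IL34, CCL26 and IL25 did not overlap, at changes of -0.08 to 0.07. The 4 members of the IL-12 family and the 3 of the IL-17 family all had signals under 7.5 and no unadjusted p under 0.05.

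**Figure D4:**
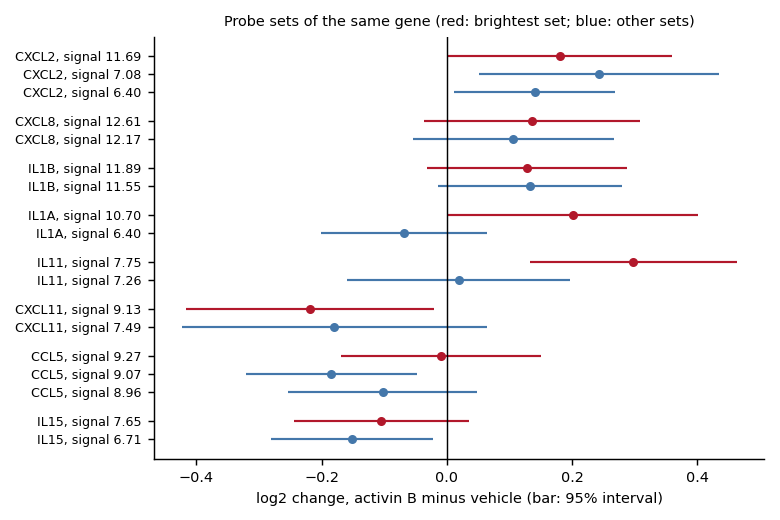
Log2 change (activin B minus vehicle) with its 95% interval for every probe set of 8 members measured more than once; red marks the set of highest signal and blue the others, and each row gives the set's mean log2 signal. The sets of each gene share a direction except those of IL1A, although the change is only -0.01 in a set of CCL5 and 0.02 in a set of IL11.

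Several of these differences depended on which vehicle arrays were included. Vehicle replicate 1 was the lowest of the 6 arrays in 8 of the 18 members at a signal of 7.5 or more (44.4%), against 17.6% of genes at that signal, while vehicle replicates 2 and 3 were the lowest in 2 members each. The 8 were CXCL1, CXCL2, CXCL3, CXCL8, CCL20, IL1A, IL1B and IL6. In all of these but CXCL3, activin B replicate 1 was likewise the lowest of the activin B arrays. Vehicle replicate 1 lay under the mean of the other vehicle arrays by 0.64 in CXCL1, 0.54 in IL6, 0.33 in IL1A, 0.28 in both CXCL2 and CXCL8, 0.27 in CXCL3, 0.21 in IL1B and 0.12 in CCL20. Without this array the change was 0.32 for CXCL3 (adjusted p = 0.501, limma), 0.22 for CCL20, 0.09 for both IL1A and CXCL2, 0.06 for IL1B, 0.04 for CXCL8, 0.02 for IL6 and -0.09 for CXCL1. The changes of IL1A, CXCL2, IL1B, CXCL8 and IL6 were thus more than 1.5 times smaller without it, and that of CXCL1 changed sign. The 8 were picked because this array was their lowest, so leaving it out could only lower their changes. Activin B replicate 1 stayed in that comparison. Vehicle replicate 3 was the highest vehicle array in all 8, so leaving it out could only raise their changes. Without it they were 0.48 for CXCL3, 0.28 for CCL20, CXCL2 and CXCL1, 0.30 for IL1A, 0.18 for IL1B, 0.20 for CXCL8 and 0.36 for IL6. Those of IL6, CXCL1 and CXCL2 were more than 1.5 times those of all 6 arrays. What set these arrays apart was not tested.

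**Figure D5:**
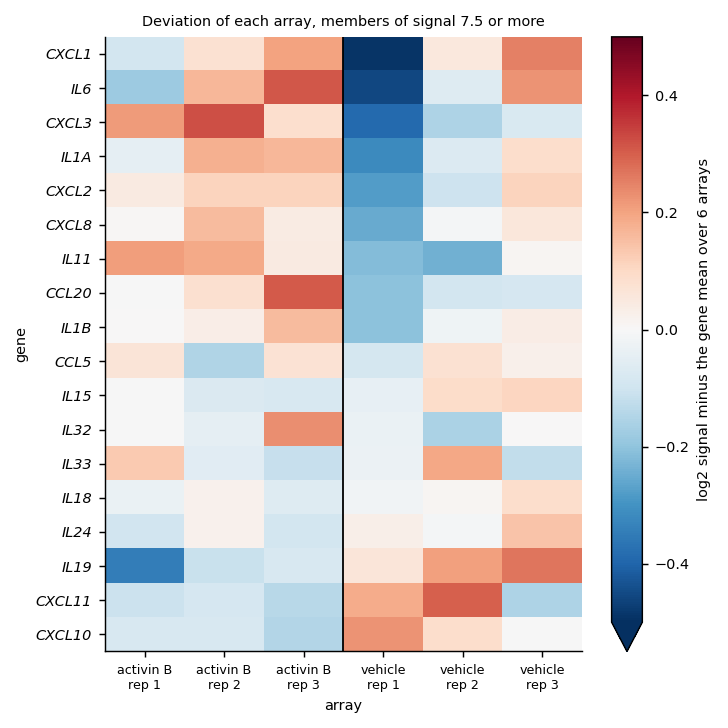
Log2 signal of each array minus the gene's mean over the 6 arrays, for the 18 members with a mean signal of 7.5 or more; columns are activin B replicates 1 to 3 and then vehicle replicates 1 to 3, and rows are ordered by the deviation of vehicle replicate 1. The deepest blue cells of vehicle replicate 1 are those of CXCL1, IL6, CXCL3, IL1A, CXCL2 and CXCL8, followed by those of IL11, CCL20 and IL1B.

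Genes that act with these ligands were read from lists named by function. Of 40 interleukin receptor genes measured, 0 were called (against 0.192% of all genes) and 3 had an unadjusted p under 0.05 (7.5%, against 5.89%). The groups did not overlap in 6 (15%, against 10.3%), all lower in activin B. IL6R, the receptor of IL6, had 9.46, 9.39 and 9.45 in activin B arrays and 9.69, 9.64 and 9.71 in vehicle arrays (change -0.25, adjusted p = 0.331, limma). IL1R1, the receptor of IL1A and IL1B, had 9.51, 9.31 and 9.47 in activin B arrays and 9.63, 9.79 and 9.59 in vehicle arrays (change -0.24, adjusted p = 0.666, limma). In both the activin B arrays lay under all vehicle arrays, as they did in IL10RB (change -0.15, adjusted p = 0.934, limma), IL18R1 (-0.13), IL27RA (-0.12) and OSMR (-0.09). The 21 chemokine receptors measured had signals under 7.5 throughout, and 0 were called. CCR9 and CCR8 (changes -0.20 and 0.18) had an unadjusted p under 0.05 (9.52% of the list, against 5.89% of all genes), and CCRL2 came next (-0.14).

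Targets and members of the NF-kappa-B and AP-1 pathways were also followed, because the promoters above hold their letters. Of 25 measured, 0 were called (against 0.192% of all genes) and 6 had an unadjusted p under 0.05 (24%, against 5.89%). SOD2, a mitochondrial enzyme and NF-kappa-B target, had 10.53, 10.75 and 10.69 in activin B arrays and 10.42, 10.23 and 10.14 in vehicle arrays (change 0.39, adjusted p = 0.13, limma). JUNB, an AP-1 subunit, had 8.84, 8.81 and 9.01 in activin B arrays and 8.55, 8.63 and 8.55 in vehicle arrays (change 0.31, adjusted p = 0.173, limma). TNFAIP3, an inhibitor that feeds back on NF-kappa-B, had 9.97, 9.97 and 9.99 in activin B arrays and 9.58, 9.75 and 9.85 in vehicle arrays (change 0.25, adjusted p = 0.557, limma). In these 3 genes the groups did not overlap. The same held for 28% of the list (6 higher and 1 lower in activin B), against 10.3% of all genes, and included FOSB and FOSL2 at changes of 0.07 and 0.06. The median change of the whole list was 0.0159. The other 3 were the AP-1 subunit FOSL1 (change 0.20), the NF-kappa-B subunit RELA (-0.15) and FOS (-0.18), and of these the groups overlapped only in FOS.

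Of 29 further ligands whose names fall outside the rule, 21 were measured, 0 were called and 1 had an unadjusted p under 0.05 (4.76%, against 5.89% of all genes). TSLP, an epithelial cytokine related to IL7, had 6.50, 6.61 and 6.72 in activin B arrays and 6.91, 6.77 and 6.89 in vehicle arrays (change -0.25, adjusted p = 0.563, limma). LTA and PPBP followed with changes of -0.14 and -0.11. The median of the list was -0.0043.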

How the data were processed

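Affymetrix arrays of 6 samples, 3 given activin B and 3 vehicle, were analysed. The deposited values are log2 signals that the authors normalized by RMA (background correction, quantile normalization, median polish), so that array medians are equal by construction and low signals are compressed; RNA amount per array was 50 ng and the number of arrays limits the precision. From 54675 probe sets, 62 array controls were left out. Probe sets were named from GEO's platform annotation: 41091 had 1 symbol, 1801 several and 11721 none; 41037 of the 41091 matched a RefSeq gene by Entrez number. Groups were compared with limma (version 3.58.1, R 4.3.3; lmFit and eBayes) without covariates, as in the methods of the study, and p-values were adjusted by Benjamini-Hochberg over all 54613 probe sets, with calls at 0.05. The fit had 4 residual and 10.8 prior degrees of freedom. Intervals are 95% intervals of the moderated test. The fit was tested on simulated data.

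Members, gene lists and the rule for named genes were chosen with earlier results of these data known. Named were the 12 members with the smallest p, the 10 of highest signal, 13 inflammatory ligands and up to 3 genes of each list; others named for their position in a count were chosen after their values were seen. Alternatives were a replicate block, filters on low signal, other normalizations and priors, array weights, other choices of probe set, and each array left out. Giving vehicle replicates 1 and 3 a paragraph of their own was decided after seeing the data.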

Additional observations from a re-analysis of the deposited data

How the results depend on the processing

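CXCL3 was called in activin B with array weights (change 0.45, adjusted p = 0.0449) and with an intensity trend in the prior (adjusted p = 0.0122), making 1 member called higher under each, and IL19 was called lower with the replicate number as a block (adjusted p = 0.0312), making 1 member called lower; no other setting called a member (limma). Samples of the same number had correlated deviations of 0.162, 0.041 and 0.192 for replicates 1, 2 and 3, so the numbers were not taken as pairs, although every array correlated best with its own number; the replicate block moved the calls over all probe sets to 97, beside 66. Members at an unadjusted p under 0.05 numbered 6 among the 33 above the median signal and 5 among the 18 at 7.5 or more (beside 8 of these 18 in the fit of all probe sets), where the fit was made on those probe sets alone, and 5 to 15 with 1 array left out (5 each where the array left out was vehicle replicate 1 or activin B replicate 2), beside 10. Members with groups that did not overlap numbered 7 and 5 under the same filters, since fewer genes were tested, and 15 to 23 with 1 array left out, beside 11; fewer arrays make an overlap less likely. The median change was 0.125 at a signal of 7.5 or more and -0.0040 to 0.0125 with 1 array left out. Directions turned for IL1A (-0.0682 with sets without the suffixes of shared probes first), CXCL1 (-0.0889 to 0.2808 with 1 array left out, the lowest without vehicle replicate 1), LIF (0.0047 with array weights, -0.0416 to 0.0516 with 1 array left out) and CXCL5 (-0.0115 as the mean of its sets, -0.0357 to 0.0387 with 1 array left out); the causes were not tested. Over all its alternatives, CXCL3 ranged between 0.32 and 0.48 (adjusted p 0.0122 to 0.596) and IL19 between -0.42 and -0.27 (0.0312 to 0.777).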
